A study of Mus musculus with 12 samples.

Results

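Aminoacyl-tRNA synthesis genes are the 43 genes, of 34745 in the deposited table, whose KEGG pathway annotation there names aminoacyl-tRNA biosynthesis; no gene had to be left out for a mitochondrial-genome name. The pathway was picked because its genes were lower on the right than on the left side in these same libraries, so the right against left values below are a description of what chose them and carry no test. The libraries came from the medial prefrontal cortex (mPFC), part of the frontal cortex studied for how pain is felt and valued, of wild-type (WT) male mice. CCI mice had had chronic constriction injury, a loose tying of the sciatic nerve that gives lasting neuropathic pain, on the left side, and were sampled on day 28: 4 libraries came from the left mPFC (ipsilateral to the nerve) and 4 from the right (contralateral). A further 4 libraries came from naive mice without the operation, whose labels read day 28, habituation. The labels give no strain or age, and no hemisphere for the naive mice; the samples used here include no sham-operated group, so operation and nerve injury cannot be told apart. Every operation was on the left, so side of injury and a standing difference between the hemispheres cannot be told apart either. This also limits the comparisons of 1 side with naive mice. For the differences by number and for the summed mice, left and right libraries with the same number were read as hemispheres of 1 mouse, which the labels do not say outright; all other comparisons treat them as separate libraries. Nothing further says how the replicates were sampled, so p-values measure the spread between these samples, which may be partly technical.

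An aminoacyl-tRNA synthetase joins an amino acid to the tRNA that reads its codons, which is the step at which the genetic code is applied. The cytosol and the mitochondria each need a set of these enzymes, all encoded in the nucleus, and a few genes serve both places. The enzymes fall into 2 structural classes; some cytosolic ones are held in a multisynthetase complex, and many are among the genes that the transcription factor ATF4 turns on when amino acids run short. Of the 43 genes, 10 encode cytosolic enzymes of class I, 9 cytosolic enzymes of class II, 2 (Gars for glycine and Kars for lysine) enzymes used in both compartments, and 16 mitochondrial enzymes. The other 6 convert an amino acid after it has been joined to its tRNA: Mtfmt formylates the initiator methionine in mitochondria, Qrsl1, Gatb and Gatc form the amidotransferase that makes mitochondrial glutaminyl-tRNA, and Pstk and Sepsecs make selenocysteine on its tRNA. Below, the first 3 groups are pooled as the 21 cytosolic genes. Eprs, whose product charges both glutamate and proline, was counted in class I only. Lars2, the mitochondrial leucine enzyme, does not carry the annotation and is not among the 43.

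The depth was 16.1 to 20.6 M counts (M, mega-counts) per library. Markers of cortical neurons, among them Slc17a7, Tbr1 and Rbfox3, were present, and no gene of the 16 neuron markers was at 0 in every library. Some CCI libraries stood apart from their group. In right library 1 the mean centred level of 8 striatum markers was 1.30 on the log2 scale, against -0.24 to 0.02 in the other 11, and in right library 2 that of 12 meningeal and fibroblast markers was -0.95, against 0.22 to 0.78 in the other right libraries. In left library 2 the same meningeal list was at 0.28, against -0.74 to -0.58 in the other left libraries. Values without these libraries, or values per library, are given where a result rests on them. In bulk tissue, fewer cells of a type and less RNA per cell cannot be told apart.

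RefSeq promoter windows (build GRCm38.p6, 250 bases before to 50 after each start) matched 30 of the 43 genes by symbol. They were searched on both strands for TGATGCAA (reverse complement TTGCATCA), the core of the C/EBP-ATF response element that ATF4 binds with a C/EBP partner. It was found for 4 of the 30 genes (13.33%), Aars, Iars, Tars and Yars, and in 294 of all 32851 windows (0.895%). The first share counts genes with a match in any of their windows and the second counts windows, so their units differ. With 1 free position the motif is TGATGNAA, which includes every match of the first. It was found for 5 of the 30 genes (16.67%, with Gars added), against 3.969% of all windows. The 4 windows with the full motif, of genes whose enzymes load alanine, isoleucine, threonine and tyrosine, are shown so that its place and surroundings can be read; capitals mark the motif, and each runs 5′ to 3′ on the gene's strand. A match is a description of the letters and not of binding.
Aars: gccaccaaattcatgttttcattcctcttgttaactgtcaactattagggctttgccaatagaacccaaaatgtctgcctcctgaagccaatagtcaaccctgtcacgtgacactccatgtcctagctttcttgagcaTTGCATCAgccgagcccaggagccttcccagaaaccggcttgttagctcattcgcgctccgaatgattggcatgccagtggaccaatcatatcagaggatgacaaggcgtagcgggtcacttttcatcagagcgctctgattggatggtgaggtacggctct
Iars: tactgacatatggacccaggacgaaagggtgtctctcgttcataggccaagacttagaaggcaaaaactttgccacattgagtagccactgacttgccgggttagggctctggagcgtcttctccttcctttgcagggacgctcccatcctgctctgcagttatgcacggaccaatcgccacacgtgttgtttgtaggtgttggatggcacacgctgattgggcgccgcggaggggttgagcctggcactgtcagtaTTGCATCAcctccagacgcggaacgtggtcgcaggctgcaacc
Tars: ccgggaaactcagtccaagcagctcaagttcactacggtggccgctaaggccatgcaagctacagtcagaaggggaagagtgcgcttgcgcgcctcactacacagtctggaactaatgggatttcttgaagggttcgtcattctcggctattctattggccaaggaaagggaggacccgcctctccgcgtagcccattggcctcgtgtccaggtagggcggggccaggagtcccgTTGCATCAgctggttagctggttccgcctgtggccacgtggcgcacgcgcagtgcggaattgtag
Yars: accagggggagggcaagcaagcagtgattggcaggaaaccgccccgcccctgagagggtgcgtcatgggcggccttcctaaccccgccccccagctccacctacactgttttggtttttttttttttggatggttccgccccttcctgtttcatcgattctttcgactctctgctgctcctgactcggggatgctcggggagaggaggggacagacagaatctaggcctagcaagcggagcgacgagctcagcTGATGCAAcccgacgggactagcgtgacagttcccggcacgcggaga
The Aars window is chr8:111033592-111033891 on the plus strand, with the motif on the opposite strand starting 112 bases before the RefSeq start. The deposited annotation places Aars at 111033144 to 111057664, so the whole window lies inside that gene span. That of Iars is chr13:49681880-49682179, plus strand, with the motif on the opposite strand from base 8 after the start. The Tars window is chr15:11399609-11399908 on the minus strand, with the motif on the opposite strand 15 bases before the start. In Yars, chr4:129189653-129189952 on the plus strand, the motif lies on the gene's own strand from base 4.

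Levels per gene length were compared as FPKM (fragments per kilobase of gene and mega-fragments) in naive mPFC. Asparaginyl-tRNA synthetase, Nars, was highest at 89.6 ± 2.0 FPKM (SD, n = 4). It was followed by the histidine enzyme Hars at 46.0 ± 1.4, Gars at 39.4 ± 0.86, the serine enzyme Sars at 28.5 ± 1.7 and Kars at 24.0 ± 0.45. In each step of this order down to Wars, which followed at 17.6 ± 6.3, the 4 naive values of neighbours did not overlap. Further down, most neighbours did: 14 of all 42 neighbouring pairs were apart. The low end was mitochondrial, with Yars2 at 1.58 ± 0.17, Nars2 at 1.27 ± 0.076, Ears2 at 0.909 ± 0.13, Pars2 at 0.838 ± 0.15 and Wars2 at 0.532 ± 0.22 FPKM, for tyrosine, asparagine, glutamate, proline and tryptophan; neighbours among the last 3 overlapped. Between Nars and Wars2 the level differed 168-fold.

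By role, the median naive level was 10.5 FPKM for cytosolic class I (3.19 to 17.6), 13.3 for class II (4.87 to 89.6), 3.27 for the mitochondrial enzymes (0.532 to 12.5) and 3.11 for the tRNA-bound conversion genes (2.16 to 15.3). The highest mitochondrial gene, the alanine enzyme Aars2, thus lay near cytosolic Lars (12.4 ± 0.58), and Gatc, at 15.3 ± 0.45, was the high exception among the conversion genes. The 8 enzymes of the multisynthetase complex spanned 3.19 FPKM (Qars, glutamine) to 24.0 (Kars), and Eprs, whose product charges both glutamate and proline, was at 4.66 ± 0.26. This order depends on the gene lengths behind the deposited FPKM, which were not checked. In counts per mega-count (CPM), which are not scaled to length, naive means were 43.4 for Qars, 39.9 for Rars and 98.1 for Eprs. Rars was at 10.1 FPKM. Low FPKM of Qars and Eprs is therefore not a low count. Iars2, for mitochondrial isoleucine, was at 6.05 ± 0.27, Mtfmt at 2.57 ± 0.22 and Sepsecs at 2.16 ± 0.14.

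**Figure D1:**
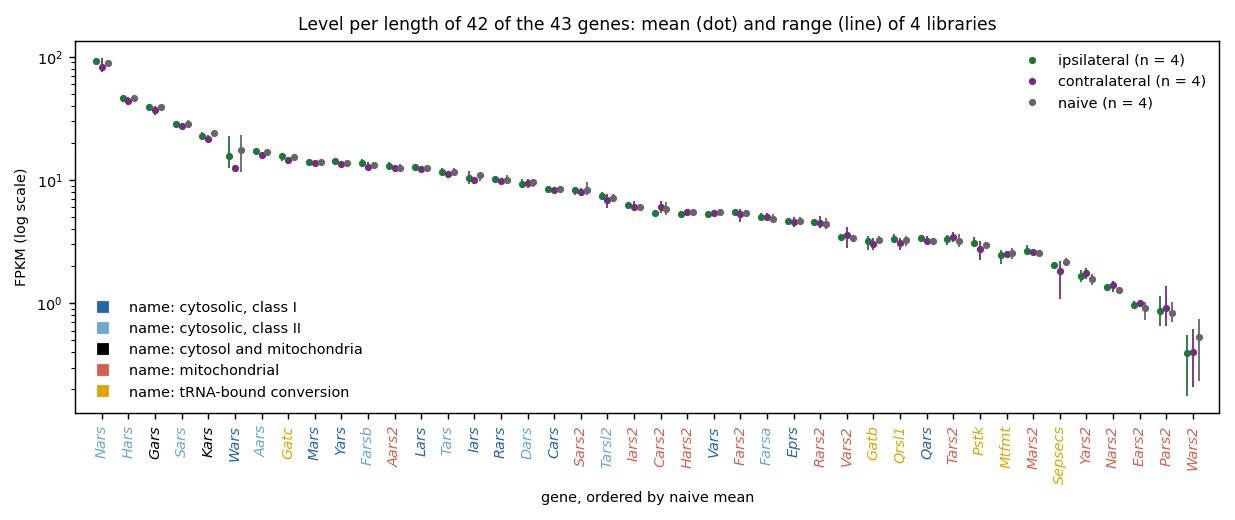
Level per gene length (FPKM, log axis) of 42 of the 43 genes, ordered by naive mean, with the mean (dot) and range (line) of 4 libraries for the left (ipsilateral) and right (contralateral) mPFC of CCI mice and naive mPFC. Name colours give the role; the order runs from Nars at 89.6 to Wars2 at 0.532 FPKM in naive mice, and the groups lie close together for nearly every gene.

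Between libraries the genes varied little. Over the 12 libraries the median coefficient of variation of normalised counts (CPM, counts per mega-count, scaled with TMM factors) was 6.19%, where counting alone would give 3.99%; over all tested genes these were 11.09% and 5.31%. Among genes at 10 CPM or more the medians were 6.08% for 40 of the 43 and 8.03% for all 10178. The coefficient was under 10% for 37 of the 43 genes, and the lowest was that of Cars, the cysteine enzyme, at 3.61%. Among the exceptions were Wars2 (44.8%), Wars (31.2%), Pars2 (24.8%), Sepsecs (15.4%) and Pstk (10.5%).

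Wars (ENSMUSG00000021266; chromosome 12, 108860030 to 108894174), which encodes the cytosolic tryptophan enzyme, took 2 levels. It was at 112, 59.9, 64.3 and 70.0 CPM in left libraries 1 to 4, at 62.3, 61.8, 61.0 and 55.3 in right libraries 1 to 4, and at 60.7, 110, 113 and 56.1 in naive libraries 1 to 4. The 3 high libraries, left 1 and naive 2 and 3, came from 2 groups, and the other 9 were all at 70.0 CPM or below. Wars2, its mitochondrial counterpart, was low and scattered within every group, from 1.67 to 5.14 CPM on the left, 1.92 to 5.81 on the right and 2.17 to 6.94 in naive mice. Its libraries did not follow those of Wars: naive 1 had 6.02 CPM of Wars2 with the low level of Wars. Sepsecs was at 11.4 CPM in right library 2 and between 19.7 and 24.3 in all 11 others. Pars2 reached 8.80 CPM in right library 4 and 7.48 in left library 1, and was between 4.19 and 6.47 elsewhere.

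**Figure D2:**
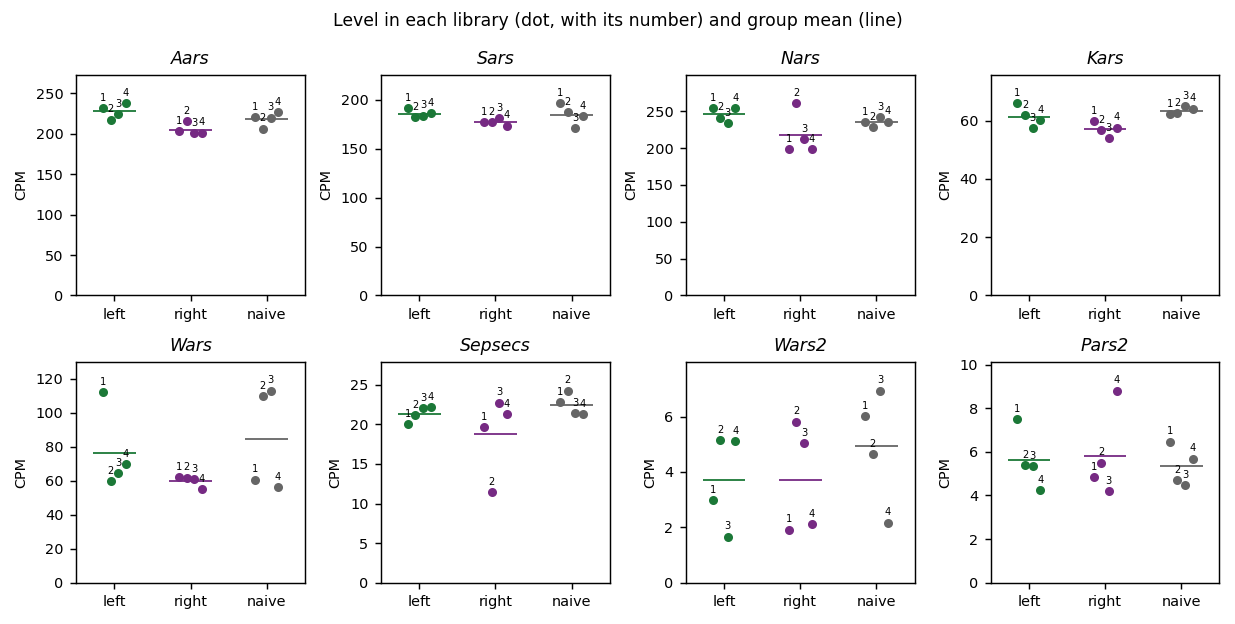
CPM in each library (dot with its number) and group mean (line) of Aars, Sars, Nars, Kars, Wars, Sepsecs, Wars2 and Pars2 in left, right and naive mPFC; every axis starts at 0. Left and right dots of Aars do not overlap, Wars has 3 libraries near 110 CPM, and right library 2 is low for Sepsecs and high for Nars.

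On the right side of CCI mice 35 of the 43 genes were lower than on the left and 8 higher, and their median log2 fold change was -0.07; over all 15808 tested genes 7724 were lower and the median was 0.0049. The cytosolic and mitochondrial enzymes differed in this description. All 21 cytosolic genes were lower on the right (median -0.09), as were all 6 conversion genes (-0.11), while the 16 mitochondrial enzymes were split 8 and 8 (median -0.0033). Leaving out a library or a CCI number in turn left 32 to 36 of the 43 lower, 19 to 21 of the 21 cytosolic, 4 to 6 of the 6 conversion and 7 to 11 of the 16 mitochondrial genes. Without right library 1, 33 of 43 were lower (median -0.07), and without right library 2 also 33 (-0.08). Without both libraries of number 2, 32 were lower (-0.09). Across the whole transcriptome 0.00% of the 15808 genes passed edgeR's adjusted p of 0.05 in this comparison, and 724 higher and 598 lower genes had an unadjusted p below it. DESeq2 also called 0; without right library 2 edgeR called 159, and without both libraries of number 2 it called 286.

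Ranges on the 2 sides were apart for 2 of the 43 genes, both lower on the right and none higher; among all tested genes 1.33% were apart and lower, and 1.61% apart and higher. Aars (ENSMUSG00000031960; chromosome 8, 111033144 to 111057664, GRCm38/mm10), the alanine enzyme, was at 232, 218, 224 and 238 CPM in left libraries 1 to 4 and at 203, 215, 200 and 201 in right libraries 1 to 4, a log2 fold change of -0.15 (SE 0.05). Its naive values, 221, 206, 220 and 227 CPM, overlapped both sides. Sars (ENSMUSG00000068739; chromosome 3, 108424865 to 108445209), the serine enzyme, was at 191.6, 182.0, 183.9 and 186.3 CPM on the left and at 176.8, 177.5, 181.5 and 173.7 on the right (log2 fold change -0.07, SE 0.05), so that only 182.0 and 181.5 CPM kept the sides apart. Naive mice had 196, 187, 171 and 184 CPM of Sars, a wider spread than either side.

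The most negative right against left values were in Wars (-0.35, SE 0.27), Pstk (-0.18, SE 0.11), Sepsecs (-0.18, SE 0.16), Nars (-0.18, SE 0.08), Aars and Tarsl2 (-0.15, SE 0.09), a second cytosolic threonine enzyme. Several of these rested on 1 library. Without left library 1 the value of Wars was -0.10. Without right library 2 that of Sepsecs was -0.0032 and that of Nars -0.27. Pstk, the kinase that precedes Sepsecs, was at 12.9, 12.4, 14.6 and 12.2 CPM on the left and at 9.10, 11.3, 13.4 and 12.1 on the right, and its value was -0.09 without right library 1 and -0.12 without left library 3. Tarsl2 was at -0.09 without right library 3, -0.06 without number 4 and -0.24 without number 2. Pstk also shares 4652 exonic bases with Ikzf5 in the annotation, and no source used here gives the strand setting of the counting.

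Nars, the highest member, was at 254, 241, 234 and 254 CPM in left libraries 1 to 4 and at 198, 261, 212 and 198 in right libraries 1 to 4. Right library 2 was above every left library, and the other 3 right libraries were below every left and naive library (naive 235, 228, 242 and 236 CPM). Gars, at 147, 147, 134 and 149 CPM on the left and 141, 147, 131 and 123 on the right, overlapped (-0.09, SE 0.06). Yars overlapped too, at 117, 108, 109 and 114 against 101, 109, 111 and 99.2 CPM (-0.10, SE 0.05). In the complex, Kars had -0.10, Iars -0.10 and Eprs -0.05 (SE 0.06, 0.08 and 0.06).

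The highest right against left values were all mitochondrial: Cars2 for cysteine (0.14, SE 0.10), Pars2 (0.05, SE 0.23), Tars2 for threonine (0.05, SE 0.09), Vars2 for valine (0.04, SE 0.09), Nars2 (0.03, SE 0.09) and Yars2 (0.03, SE 0.11). Cars2 was at 12.2, 10.1, 12.1 and 9.9 CPM in right libraries 1 to 4 and at 9.8 to 10.6 on the left, so the higher mean came from right libraries 1 and 3. Cars2 was at 0.09 without right library 1. The other 5 changed sign with libraries left out: Pars2 ranged from -0.33 to 0.30, Tars2 from -0.02 to 0.10, Vars2 from -0.06 to 0.15, Nars2 from -0.0039 to 0.09 and Yars2 from -0.03 to 0.10. Iars2 (-0.07, SE 0.06) lay with the cytosolic genes, and Mtfmt was at -0.0041 (SE 0.10).

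Taken by number, the right library was lower than the left in 34 of the 43 genes for number 1 (median log2 difference -0.09), 22 for number 2 (-0.02), 32 for number 3 (-0.07) and 31 for number 4 (-0.08). The medians over all genes were between -0.01 and 0.01. Number 2 therefore had an almost even split, with 11 of its 21 cytosolic genes lower, against 18, 19 and 16 in numbers 1, 3 and 4. Lower on the right in 4 of 4 numbers were 8 genes, Aars, Aars2, Kars, Lars, Pstk, Rars, Sars and Sars2, where 6.33% of all genes were; no gene was lower in 0 of 4, where 6.41% of all genes were.

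**Figure D3:**
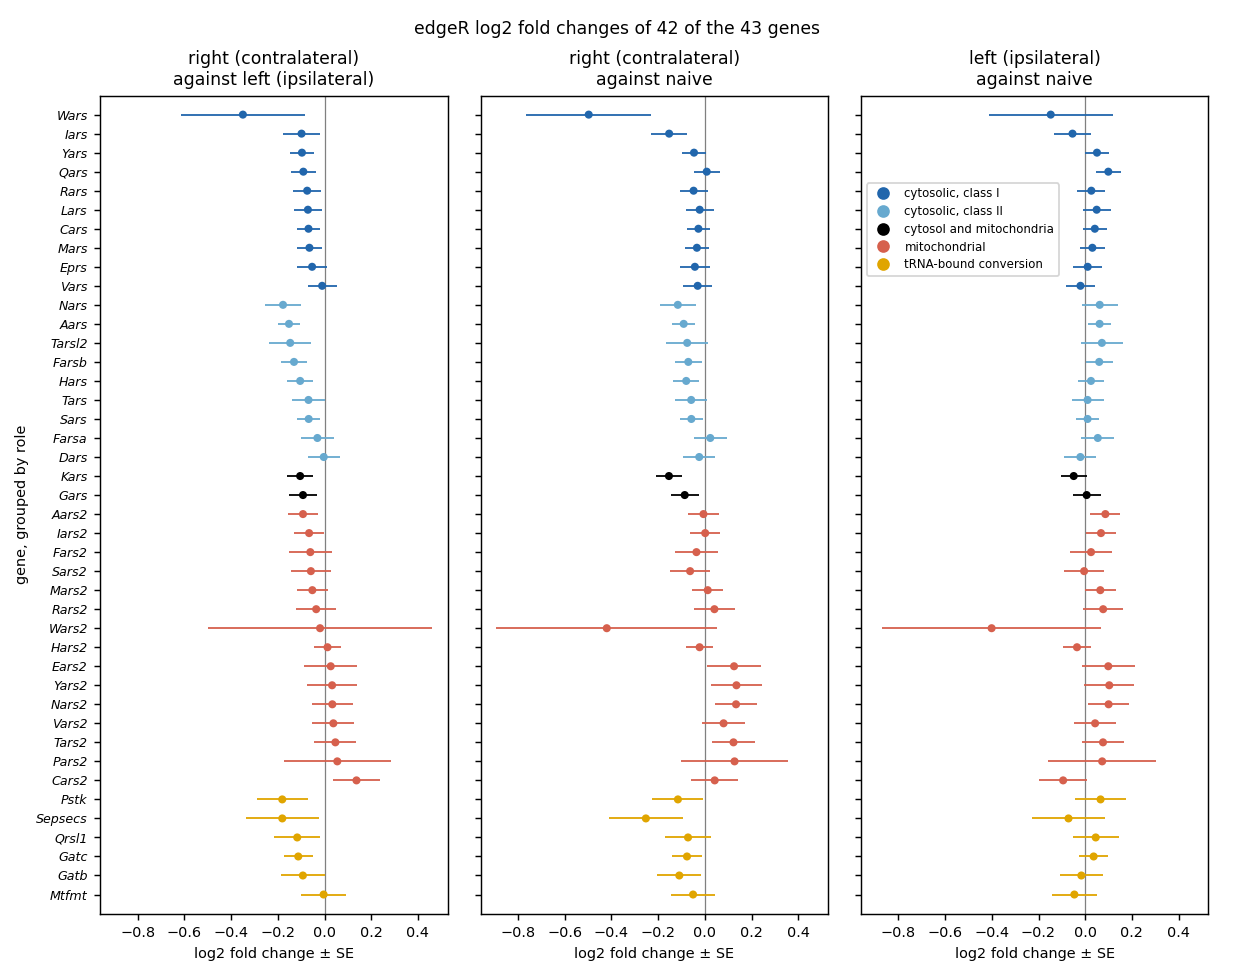
edgeR log2 fold change (dot) with SE (line) of 42 of the 43 genes, grouped by role, for right against left, right against naive and left against naive. In the first panel all 21 cytosolic genes lie below 0 and the mitochondrial genes on both sides; the first panel is the comparison the genes were picked on, and each pair of panels shares a group of libraries.

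The cell type marker lists also differed between the sides. Of the 16 neuron markers 14 were lower on the right than the left (median log2 fold change -0.19), with summed levels of 14588 to 16111 CPM on the left, 12613 to 15048 on the right and 14434 to 14915 in naive libraries. All 12 astrocyte markers (median 0.19), all 12 microglia markers (0.21) and all 12 meningeal and fibroblast markers (0.60) were higher on the right. Their summed levels were 1787 to 4119 CPM on the left and 1888 to 4905 on the right for astrocytes, 432 to 451 and 431 to 606 for microglia, and 116 to 185 and 139 to 268 for meninges. None of these markers was at 0 in every library, and 0 passed edgeR's adjusted threshold. A score averages, over a list, each gene's log2 CPM minus its mean over the 12 libraries. The meningeal score was -0.58, 0.28, -0.74 and -0.60 in left libraries 1 to 4 and 0.48, -0.95, 0.22 and 0.78 on the right. The astrocyte score was 0.03, 0.07, -0.17 and -0.42 on the left and 0.0015, -0.23, 0.33 and 0.44 on the right. Number 2 was thus lower on the right for both lists, and number 1 for astrocytes. The microglia score was higher on the right in every number. In right libraries 1 to 4 the neuron marker score was -0.22, 0.05, -0.10 and -0.28. The score of the 21 cytosolic genes was -0.03, -0.0011, -0.10 and -0.10 in the same libraries. In right library 2, 11 of the 21 cytosolic genes were lower than in left library 2. The part of cell composition in the right against left values of the synthesis genes was not tested.

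The score of the 21 cytosolic genes was 0.04 ± 0.05 on the left, -0.06 ± 0.05 on the right and 0.02 ± 0.04 in naive libraries (SD, n = 4 each). The lowest right libraries were 3 and 4, at -0.10 each, and right library 2, at -0.0011, lay among the left and naive ones. The mitochondrial score was 0.01 ± 0.03, -0.0014 ± 0.07 and -0.01 ± 0.07, with the groups overlapping widely.

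**Figure D4:**
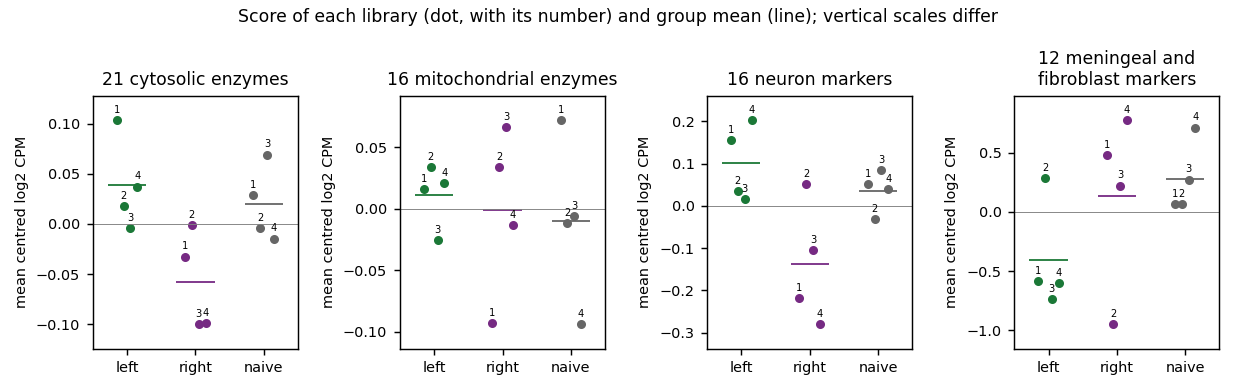
Score per library (dot with its number; mean over the list of centred log2 CPM) and group mean (line) for the 21 cytosolic enzymes, the 16 mitochondrial enzymes, 16 neuron markers and 12 meningeal and fibroblast markers; the vertical scales differ. The cytosolic score is lowest in right libraries 3 and 4 at -0.10, and right library 2 stands apart from the other right libraries for both marker lists.

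Right mPFC was next set against naive mPFC, a comparison that shares its right libraries with the one above. None of the 43 genes passed edgeR's adjusted p of 0.05, and neither did any gene of the transcriptome (0.00% of 15808; 303 higher and 294 lower genes had an unadjusted p below 0.05, and DESeq2 called 3). Of the 43, 31 had lower and 12 higher values on the right, and the median log2 fold change was -0.05 where that of all genes was 0.0003; without naive library 1 the median was -0.02. The cytosolic genes were 19 lower and 2 higher (median -0.06), the conversion genes 6 lower (-0.09) and the mitochondrial genes 6 lower and 10 higher (0.03). All 13 synthetase genes known as ATF4 targets had lower values (-0.06), as had most of the 21 cytosolic genes to which they belong (also -0.06). On the left 10 of these 13 were higher than naive and 3 lower (median 0.01). Neuron markers were lower for 14 of 16 (median -0.10) and oligodendrocyte markers higher for 10 of 10 (0.31), with 0 passing. The oligodendrocyte score was 0.53, 0.70, -0.39 and -0.44 in right libraries 1 to 4 and -0.40 to 0.07 in naive libraries. On the left, oligodendrocyte markers were also higher than naive for 10 of 10 (median 0.19). Their score was 0.46, 0.11, -0.02 and -0.43 in left libraries 1 to 4, so left library 4 lay below every naive library. The part of these marker lists in the values of the 43 genes was not tested.

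Kars (ENSMUSG00000031948; chromosome 8, 111993440 to 112011323) was the gene whose ranges were apart, 1 of 43 lower and 0 higher, where 1.16% of all genes were apart and lower and 1.04% apart and higher. It was at 59.9, 56.6, 53.9 and 57.6 CPM in right libraries 1 to 4 and at 62.1, 62.5, 65.0 and 64.1 in naive libraries 1 to 4. The log2 fold change was -0.15 (SE 0.06), with an edgeR adjusted p of 0.9999 and an unadjusted p of 0.0149, the only unadjusted p below 0.05 among the 43. Kars on the left, at 65.9, 61.8, 57.3 and 60.2 CPM, overlapped both other groups.

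The most negative values were in Wars (-0.50, SE 0.27), Wars2 (-0.42, SE 0.47), Sepsecs (-0.25, SE 0.16), Kars, Iars (-0.15, SE 0.08) and Nars (-0.12, SE 0.08). Wars went to -0.33 without naive library 3, and Sepsecs to -0.07 without right library 2. The value of Wars rested on naive libraries 2 and 3, at 110 and 113 CPM, which leaving out 1 library does not remove. Naive libraries 1 and 4, at 60.7 and 56.1 CPM, lay within the right range of 55.3 to 62.3. With libraries left out, Wars2 ranged from -0.71 to -0.20, and Nars from -0.21 (without right library 2) to -0.07 (without right library 4). Iars, the isoleucine enzyme, was at 65.8, 71.1, 66.4 and 62.0 CPM on the right and 77.1, 73.4, 78.2 and 66.3 in naive mice, with only naive library 4 within the right range. The most positive values were again mitochondrial, Yars2 (0.14, SE 0.11), Nars2 (0.13, SE 0.09), Pars2 (0.13, SE 0.23), Ears2 (0.12, SE 0.11), Tars2 (0.12, SE 0.09) and Vars2 (0.08, SE 0.09). Pars2 turned to -0.14 without right library 4, Ears2 was at 0.04 without naive library 4, and Vars2 at 0.0098 without right library 1. Yars2 ranged from 0.08 to 0.19 and Tars2 from 0.08 to 0.20 with libraries left out. Aars (-0.09, SE 0.05), Gars (-0.09, SE 0.06), Yars (-0.05, SE 0.05) and Eprs (-0.04, SE 0.06) also lay below naive, with overlapping ranges; Iars2 was at 0.0012 (SE 0.06) and Mtfmt at -0.05 (SE 0.10).

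Left mPFC against naive shares its left libraries with the comparison that picked the genes, and its naive libraries with the previous one. Of the 43 genes, 31 had higher and 12 lower values (median 0.04; all genes -0.0005), and none passed edgeR's adjusted p of 0.05 (0.00% of all genes; 295 higher and 468 lower genes had an unadjusted p below 0.05, and DESeq2 called 9). No ranges were apart, where 1.95% of all genes were apart and higher and 2.77% apart and lower. The cytosolic genes were 16 higher and 5 lower (median 0.03; 3 to 8 lower with libraries left out), and the mitochondrial genes 12 and 4 (0.07). Without left library 1 the median of the 43 was 0.02. Meningeal and fibroblast markers were lower on the left for 12 of 12 (median -0.55) and neuron markers higher for 13 of 16 (0.09), with 0 passing. In left library 2 the meningeal score was 0.28, within the naive range of 0.06 to 0.71. The part of these lists in the values of the 43 genes was not tested.

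The highest values were those of Yars2 (0.10, SE 0.11), Nars2 (0.10, SE 0.09), Qars (0.10, SE 0.05), Ears2 (0.10, SE 0.11), Aars2 (0.09, SE 0.06) and Rars2 for mitochondrial arginine (0.08, SE 0.09). Qars was at 45.1, 47.5, 47.3 and 46.2 CPM on the left and at 45.4, 41.9, 43.2 and 43.3 in naive libraries, of which only naive 1 lay inside the left range. The lowest were Wars2 (-0.40, SE 0.47), Wars (-0.15, SE 0.27), Cars2 (-0.09, SE 0.10), Sepsecs (-0.07, SE 0.16), Iars (-0.05, SE 0.08) and Kars (-0.05, SE 0.06). Yars2 ranged from 0.04 to 0.16 and Ears2 from 0.0081 to 0.17 with libraries left out, and Wars2 from -0.65 to -0.16. Wars reached 0.02 without naive library 3, and Iars 0.0033 without left library 3.

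With both hemispheres of each CCI number summed, 4 CCI mice were compared with 4 naive mice. Of the 43 genes, 26 had lower and 17 higher values, their median log2 fold change was -0.01, and without naive library 1 only 19 were lower (median 0.0042). None of the 43 passed edgeR's adjusted p of 0.05 (0.00% of 16179 genes; 291 higher and 388 lower genes had an unadjusted p below 0.05, and DESeq2 called 31), and no ranges were apart, against 1.22% of all genes apart and higher and 1.50% apart and lower. The cytosolic genes were 15 lower and 6 higher (9 lower without naive library 1), the conversion genes 6 lower and the mitochondrial genes 5 lower and 11 higher. Wars2 (-0.41, SE 0.36), Wars (-0.32, SE 0.28), Sepsecs (-0.15, SE 0.09), Iars (-0.10, SE 0.07), Kars (-0.10, SE 0.05) and Gatb (-0.06) were lowest. Yars2 and Nars2 (0.12 each), Ears2 (0.11), Tars2 and Pars2 (0.10 each) and Vars2 (0.07) were highest. Without naive library 3, Wars2 was at -0.21 and Wars at -0.15, and without number 2 Sepsecs was at -0.07 and Iars at -0.15. Ears2 was at 0.02 without naive library 4, Yars2 at 0.07 without naive library 2 and Tars2 at 0.05 without naive library 1.

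The genes around tRNA charging were examined next, and none of them passed edgeR's adjusted p of 0.05 in any of the 4 comparisons, in either direction. The scaffold of the multisynthetase complex has 3 subunits, Aimp1, Aimp2 and Eef1e1. Against naive, Aimp1 was at -0.13 on the right and -0.02 on the left (log2 fold change, SE 0.11 and 0.10), the first of which was -0.03 without right library 4, and Eef1e1 at -0.08 and -0.05 (SE 0.10 each). Aimp2 was at 18.9, 18.9, 18.2 and 19.1 CPM on the left and 17.4, 17.1, 15.1 and 17.9 in naive libraries, so these ranges were apart; its log2 fold change was 0.15 (SE 0.07; edgeR adjusted p = 0.9719), and on the right it was 0.05 (SE 0.07). Right against left, all 3 had lower values (-0.12 for Aimp1, -0.10 for Aimp2 and -0.02 for Eef1e1), and Aimp1 was at -0.02 without right library 4.

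ATF4, the transcription factor of the amino acid response, had an mRNA level of 120 ± 5.5 CPM on the right, 129 ± 9.5 on the left and 125 ± 6.0 in naive libraries (SD, n = 4). Its log2 fold change was -0.06 (SE 0.06) right against naive, 0.04 (SE 0.06) left against naive and -0.10 right against left. Of the 27 tested genes of the ATF4 response list, 12 were lower and 15 higher on the right than in naive mice (median 0.02), 13 and 14 on the left (0.0076), and 11 lower and 16 higher right against left (0.03). Asns, the asparagine synthetase that makes the amino acid used by Nars, was at 85.4 ± 10 CPM on the right, 94.5 ± 4.8 on the left and 99.6 ± 4.3 in naive libraries. Its log2 fold change right against naive was -0.22 (SE 0.08; edgeR adjusted p = 0.9999), and -0.15 without right library 4. Psat1, of serine synthesis, lay the other way at 81.4 ± 3.3 CPM on the right and 72.0 ± 3.3 in naive libraries, with ranges apart (0.18, SE 0.07; edgeR adjusted p = 0.9999). Aldh18a1 of the same list was also higher on the right than in naive libraries with ranges apart (0.09, SE 0.07). In left libraries Psat1 was at 78.2 ± 6.9 CPM, and Slc7a11, a cystine transporter, at 31.5 ± 4.3 against 40.01 ± 2.7 in naive (-0.34, SE 0.19). In the summed mice Psat1 was at 0.15 (SE 0.05, ranges apart), Asns at -0.15 (SE 0.06) and Atf4 at -0.01 (SE 0.05).

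Of the 13 eIF2 kinase, phosphatase and eIF2B genes, which act upstream of ATF4, 7 were lower and 6 higher on the right than in naive mice, 6 and 7 on the left. The smallest unadjusted p-values were those of Eif2s1 (-0.14, SE 0.08) and the phosphatase subunit Ppp1r15a (0.34, SE 0.19) on the right, and of Eif2b4 (-0.12, SE 0.09) and Eif2ak1 (0.06, SE 0.06) on the left. In the summed mice 8 were lower and 5 higher, led by Ppp1r15a (0.26, SE 0.14) and Eif2b2 (-0.08, SE 0.06). Right against left, Eif2ak1 was lower with ranges apart (-0.15, SE 0.06).

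Among 14 genes of tRNA editing, modification and handling, 10 were higher and 4 lower on the right than in naive mice, with Trdmt1, a tRNA methyltransferase, at 0.31 (SE 0.14). On the left 12 were higher and 2 lower, with Ptrh2 at 0.14 (SE 0.10) and Dtd2 at 0.17 (SE 0.12), and in the summed mice 10 and 4, with Ptrh2 at 0.14 (SE 0.09) and Trdmt1 at 0.18 (SE 0.12). The 5 genes of eEF1, the factor that brings charged tRNA to the ribosome, were 3 higher and 2 lower on the right, with Eef1g at -0.07 and the neuronal form Eef1a2 at -0.06 (SE 0.05 each). On the left they were 2 higher and 3 lower, with Eef1d at 0.14 (SE 0.07, ranges apart) and Eef1a2 at 0.09 (SE 0.05). In the summed mice they were 3 and 2, with Eef1d at 0.11 (SE 0.05) and Eef1g at -0.06 (SE 0.04), both with ranges apart.

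The 17 mitochondrial translation factors and tRNA modifiers were 8 higher and 9 lower on the right than in naive mice. Trmu, which thiolates mitochondrial tRNA, was at 0.12 (SE 0.08, ranges apart) and Tsfm at -0.13 (SE 0.09). On the left the 17 genes were 10 higher and 7 lower, with Gtpbp3 at 0.16 (SE 0.09) and Gfm1 at 0.12 (SE 0.07). In the summed mice they were 11 and 6, with Gtpbp3 at 0.11 (SE 0.07) and Trmu at 0.07 (SE 0.07). The 13 amino acid transporters were 9 higher and 4 lower on each side against naive. Slc7a5, a carrier of large neutral amino acids, was at 0.14 (SE 0.07) and Slc6a17 at 0.31 (SE 0.24) on the right, and Slc1a4 at -0.10 (SE 0.07) and Slc3a2, the partner of Slc7a5, at 0.08 (SE 0.06) on the left. In the summed mice 11 transporters were higher and 2 lower, with Slc7a5 at 0.12 (SE 0.06) and Slc6a17 at 0.29 (SE 0.15). Lars2 was at 6.69 ± 0.55 FPKM in naive mice (SD, n = 4), with log2 fold changes of -0.14 on the right and 0.01 on the left against naive, and -0.15 right against left.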

How the data were processed

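The 43 genes and the gene lists were chosen with earlier results of these data known. Total RNA was made into libraries with an mRNA kit, per the labels' protocols. The submitters' processing notes name HISAT2 2.0.4, GRCm38 and mm10; the counting program, annotation release and strand setting are not named in the sources used here. The deposited table holds raw counts per gene for every library and, for the same libraries, FPKM values, which the authors had scaled to gene length and library total: count over FPKM followed 1 factor per library within a relative 6.23e-06 for genes of 100 or more counts in every library. FPKM served only to compare levels between genes, and is not tested.

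The test on counts was edgeR 4.0.16 under R 4.3.3 (TMM factors, filterByExpr, robust quasi-likelihood, two-sided). All 12 libraries in 3 groups gave 15808 tested genes, and 8 mice, with the left and right counts of a CCI number summed, gave 16179. All 43 genes were tested in both. The threshold was 0.05 on p adjusted by Benjamini-Hochberg over all tested genes. For right against left the 43 genes were not tested, and no list was tested as a set. Scores used log2 CPM with a prior count of 2. The scripts were tested on simulated data. Totals of 16.1 to 20.6 M (mega-counts) put the median counting error of the 43 genes at 3.99% per library.

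Named genes were, per comparison, the 6 most positive and 6 most negative of the 43; the 5 highest and 5 lowest in naive FPKM; Aars, Gars, Kars, Yars, Eprs, Iars, Wars, Lars2, Iars2, Mtfmt and Sepsecs; of each related list the 2 of smallest unadjusted p; and Atf4, Asns, Aimp1, Aimp2 and Eef1e1. Others (such as Sars, Pstk and Cars) were named after their values were seen. Alternatives were DESeq2 1.42.0, limma 3.58.1, other size factors, no filter, fits of only the groups compared, a replicate block and leaving out libraries. Of the 43 genes 14 share exonic bases with another gene, so that their counts are less certain; the longest overlaps are those of Pstk with Ikzf5 (4652 bases) and Iars2 with Rab3gap2 (2034). Values of some single genes that these rules name are not reported here.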

Additional observations from a re-analysis of the deposited data

Results flagged for a closer look

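Farsa, the alpha subunit of the cytosolic phenylalanine enzyme, was at 36.6 CPM in left library 1, while the other 3 left libraries were between 32.2 and 32.9 CPM. The gap to the nearest library was 0.848 of the group's range, above Dixon's critical value for 4 samples. In all, 141 groups of 4 were examined and 1 was past that value; chance alone gives about 1 in 20, or 7.0 of them. Farsa was not among the genes with the largest differences in any comparison.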

How the results depend on the processing

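None of the 43 genes passed in any alternative of the 3 comparisons with naive mice. The counts of genes that passed over the whole transcriptome moved from 0 as follows. DESeq2 called 3 (right against naive), 9 (left against naive) and 31 (CCI mice against naive); fits of only the groups compared called 1 and 7 in the first 2 of these; no filter on low counts called 5 for CCI mice. Leaving out libraries or numbers gave 0 to 3, 0 to 4 and 0 to 6 in these 3 comparisons, and 0 to 286 right against left (159 without right library 2, 286 without number 2). The median of the 43 right against naive ranged from -0.0596 to -0.0151 with libraries left out. Signs turned, with libraries left out, for Pars2, Tars2, Vars2, Nars2 and Yars2 right against left (ranges above), for Pars2 right against naive (-0.1415 to 0.2625; -0.1408 without right library 4), for Iars (-0.1163 to 0.0033; -0.1162 without left library 2, 0.0029 without number 3), Wars (-0.3879 to 0.0217) and Aimp1 (-0.0682 to 0.0386; 0.0087 without number 3, 0.0080 without number 4) left against naive, for Eef1e1 right against left (-0.0847 to 0.0199; 0.0056 without number 2) and for Atf4 in CCI mice (-0.0291 to 0.0237). The cause was not tested.

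With the number as a replicate block, 1 gene passed in each comparison with naive mice (right, left and summed) and 0 right against left, none of them among the 43. The block also put naive libraries with CCI libraries of the same number, which are different mice, so in those comparisons it is no pairing. The pairing check gave correlations of right and left deviations of 0.012, -0.137, 0.038 and 0.06 for numbers 1 to 4, so the data do not show that numbers pair the libraries; the summed comparison and the differences by number rest on the codes alone. With 4 libraries a group, the SE of a right against left log2 fold change ran from 0.05 (Sars) to 0.48 (Wars2) among the 43 genes, and values that missed the threshold are not shown to be equal.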
